A study of Mus musculus with 18 samples.

Results

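Sphingosine 1-phosphate (S1P) receptors, the enzymes that make and destroy their ligand, and the oxysterol receptor Gpr183 were examined in intestinal dendritic cells (DCs) of the lamina propria and of the intestinal lymph nodes. The 9 genes were taken by symbol from the 54232 genes of the count table and are the receptors S1pr1, S1pr2, S1pr3, S1pr4 and S1pr5, the transcription factor Klf2, the kinase Sphk1, the lyase Sgpl1 and Gpr183. Each was matched to 1 Ensembl identifier, and all 9 passed the filter on low counts that left 17074 genes for testing.

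The 18 RNA-seq libraries came from C57BL/6J mice whose genotype is given as CD11a KO, so every group lacks a wild-type counterpart here. CD11a, the product of Itgal, pairs with CD18 to form the adhesion receptor LFA-1. DCs of 3 subsets, named CD11b+, CD103+ and double-positive (CD11b+ and CD103+), were taken from each of the 2 tissues, with 3 libraries in each of the 6 groups. The gate described for DCs of the series is live, single, CD45+, CD64-, MHCIIhigh and CD11c+, and it is stated for the lamina propria after removal of Peyer's patches. No source used here gives a gate for the lymph node, the age or sex of the mice, how the knockout was made or whether replicates are separate animals, so the p-values measure only the spread between these libraries.

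S1P is abundant in blood and lymph and scarce inside tissues, and cells that carry S1pr1 on their surface follow this gradient out of an organ. Klf2 is a transcription factor that drives S1pr1 in T cells, Sphk1 and its relative Sphk2 make S1P, and Sgpl1 cleaves it irreversibly. Gpr183, also called EBI2, guides B cells, T cells and DCs of lymphoid organs towards oxysterols made from cholesterol by Ch25h and Cyp7b1.

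In the GRCm38 annotation all 9 are protein-coding genes. On the plus strand lie S1pr3 (ENSMUSG00000067586) at chr13:51408639-51422797, Klf2 (ENSMUSG00000055148) at chr8:72319033-72321656 and Sphk1 (ENSMUSG00000061878) at chr11:116530925-116536674. On the minus strand lie S1pr1 (ENSMUSG00000045092) at chr3:115710433-115715072, S1pr2 (ENSMUSG00000043895) at chr9:20962361-20976781 and S1pr4 (ENSMUSG00000044199) at chr10:81497747-81500132. Also on the minus strand lie S1pr5 (ENSMUSG00000045087) at chr9:21242912-21248443, Sgpl1 (ENSMUSG00000020097) at chr10:61098642-61147703 and Gpr183 (ENSMUSG00000051212) at chr14:121952551-121965195. Reads were counted over whole genes, so isoforms are not told apart.

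The libraries held between 23574292 and 46901985 counted reads, with medians of 27311923 in lamina propria and 27401041 in lymph node. Itgal was read in every library labelled CD11a knockout, at 17.6 to 26.6 CPM (reads of a gene scaled to a library of common size) in lamina propria and 6.45 to 23.0 CPM in lymph node, and where the gene was disrupted is not stated in the labels. All 6 conventional DC genes were at 10 CPM or more in all 18 libraries, with Flt3 and Zbtb46 at 161 CPM or above. None of the 6 was called between the tissues in CD11b+ DCs, but Itgax (CD11c) and the MHC class II genes H2-Ab1 and Ciita fell in CD103+ and double-positive DCs of lymph node. Cd74 fell as well in CD103+ DCs, where the list summed to 65260 to 69500 CPM in lamina propria and 19010 to 19490 CPM in lymph node, and Flt3 rose in double-positive DCs. The genes of the sorting markers were low in the lymph node sorts, where Itgae (CD103) reached at most 49.1 CPM against 92.1 to 1440 CPM in lamina propria, and Itgam (CD11b) had a median of 4.88 CPM against 60.5 CPM in lamina propria. These values pool the 9 libraries of a tissue, with the sorts not named for the marker among them. Together both genes summed to 20.4 to 31.3, 27.3 to 40.2 and 45.9 to 54.8 CPM in lymph node CD11b+, CD103+ and double-positive DCs. In lamina propria the sums were 153 to 361, 1238 to 1441 and 777 to 973 CPM. Xcr1, a marker of type 1 conventional DCs, reached 1410 CPM in lamina propria and at most 103 CPM in any lymph node library, and 6 of 7 genes of that DC type fell in CD103+ DCs of lymph node. Of the same 7 genes 3 rose and 0 fell in CD11b+ DCs, and 4 rose and 1 fell in double-positive DCs, with median log2 fold changes of 0.40 and 1.55 beside -2.69 in CD103+ DCs. Of all genes tested, 15.2%, 35.0% and 32.1% were called between the tissues in CD11b+, CD103+ and double-positive DCs. The 5 genes of type 2 conventional DCs fell as a sum in CD11b+ DCs, from 2195 to 3288 CPM to 746 to 1171 CPM. In double-positive DCs their sum fell from 2522 to 3007 CPM to 196.5 to 239 CPM. In CD103+ DCs it was at 29.9 to 42.9 CPM in lamina propria and 42.9 to 51.0 CPM in lymph node. All 9 lamina propria libraries held Ddx3y, a Y-linked gene, at a median of 65.0 CPM, with Xist at 0.286 CPM or below. Xist was at 15.4 CPM or above in all lymph node libraries, and 2 of these (CD11b+ replicate 3 and double-positive replicate 3) also held Ddx3y at 58.0 and 52.2 CPM. The sex of the mice and the tissue therefore cannot be told apart, and each result that changed without these 2 libraries is given both ways.

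Lymphocyte genes moved with the tissue and are given here once because the receptors are also expressed by lymphocytes. The 14 T cell genes summed to between 11.8 and 69.9 CPM in a lamina propria library and to between 744 and 1477 CPM in a lymph node library, and 13, 14 and 14 of the 14 rose in the CD11b+, CD103+ and double-positive subsets, in that order. Cd3e was at 0.464 to 2.27 CPM in lamina propria and 23.8 to 70.6 CPM in lymph node. The 7 NK cell genes summed to between 1.90 and 8.90 CPM in lamina propria, and in lymph node to 143 to 258 CPM in CD11b+, 48.6 to 121 CPM in CD103+ and 46.0 to 74.8 CPM in double-positive DCs, with 6, 5 and 6 of the 6 tested genes higher. Ncr1, which marks NK cells, stood at 73.2 to 118 CPM in lymph node CD11b+ DCs, 11.0 to 18.7 CPM in double-positive and 2.19 to 2.74 CPM in CD103+ DCs, and at 0.503 CPM or below in lamina propria. The 10 B cell genes summed to 47.0 to 56.4 CPM in lamina propria and 129 to 183 CPM in lymph node CD11b+ DCs. In double-positive DCs the sums were 15.6 to 16.2 and 63.0 to 76.7 CPM. In CD103+ DCs they overlapped between the tissues, at 43.4 to 70.5 CPM in lamina propria and 44.5 to 57.7 CPM in lymph node. Of the 9 tested genes 7, 7 and 8 were higher in CD11b+, CD103+ and double-positive DCs, and 1 was lower in CD103+ DCs. Beside these counts for T, NK and B cell genes, 10.3%, 19.8% and 18.6% of all genes tested were called higher in lymph node.

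The 11 endothelial genes summed to 77.6 to 87.7, 7.81 to 7.96 and 109.1 to 124 CPM in lamina propria CD11b+, CD103+ and double-positive DCs, and to 83.9 to 91.2, 11.4 to 20.3 and 19.4 to 23.2 CPM in lymph node. Most of each sum in CD11b+ and in lamina propria double-positive DCs was Pecam1, which leukocytes express as well, at 58.9 to 110 CPM there. Cdh5, which defines endothelium, was at 0.659 CPM or below in all 18 libraries. Kdr, a receptor for vascular growth factor, rose in all 3 subsets, from 1.57 to 3.03 CPM to 14.7 to 22.3 CPM in CD11b+ DCs, and Robo4 fell in all 3. Pecam1 rose in CD103+ and fell in double-positive DCs, and Egfl7 fell in CD103+ DCs. In bulk RNA, fewer cells of a type and less RNA per cell cannot be told apart.

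Upstream sequences are shown for Klf2 and for S1pr3 and S1pr4, which were all higher in lymph node DCs. They come from RefSeq promoter windows of GRCm38.p6 (8 of the 9 genes matched; S1pr1 had no entry), on the strand of the gene, and stop before the annotated gene starts. In the Klf2 window (chr8:72318812-72319032, plus strand) the capitals mark a match to the MEF2 motif, which was searched on both strands.
Klf2: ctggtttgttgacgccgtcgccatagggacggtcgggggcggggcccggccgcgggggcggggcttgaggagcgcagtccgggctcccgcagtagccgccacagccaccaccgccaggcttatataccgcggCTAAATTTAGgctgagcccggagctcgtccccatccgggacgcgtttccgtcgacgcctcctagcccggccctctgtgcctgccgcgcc
In the windows of S1pr3 (chr13:51408368-51408617, plus strand) and S1pr4 (chr10:81500138-81500387, minus strand) the capitals mark CACCC or its reverse complement GGGTG, the core of the sites that Klf factors bind.
S1pr3: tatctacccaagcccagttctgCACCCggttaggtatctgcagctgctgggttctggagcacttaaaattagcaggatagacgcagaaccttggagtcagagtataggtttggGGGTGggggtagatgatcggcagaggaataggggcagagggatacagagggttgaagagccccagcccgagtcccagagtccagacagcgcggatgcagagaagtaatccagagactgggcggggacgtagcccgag
S1pr4: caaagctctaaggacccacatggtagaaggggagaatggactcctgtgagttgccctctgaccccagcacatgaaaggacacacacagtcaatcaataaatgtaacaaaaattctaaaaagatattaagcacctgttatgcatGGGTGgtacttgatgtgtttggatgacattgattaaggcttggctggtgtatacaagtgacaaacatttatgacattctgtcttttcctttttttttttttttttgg
The MEF2 motif was found in 0.508% of the 32851 windows of 250 bases upstream of a start, and among the 8 matched genes only in Klf2. CACCC was found in 52.0% of all windows, so its presence is common. Counting a gene by any of its windows, it was found in 6 of the 8 genes (Klf2, S1pr2, S1pr3, S1pr4, S1pr5 and Sphk1). The matches of Sphk1 lie only in windows inside the annotated gene, and its window that reaches upstream held 0. The 2 motifs have no letters in common in these windows, since the CACCC match of Klf2 lies past the part printed. A match is a stretch of letters and says nothing of binding.

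The first question was whether the genes differ between the tissues within a subset. In CD11b+ DCs 5 of the 9 genes were called (adjusted p under 0.01 and fold over 2 in edgeR's quasi-likelihood test), and 15.2% of all genes tested were called. In CD103+ DCs 6 of the 9 were called, beside 35.0% of all genes. In double-positive DCs 7 of the 9 were called, beside 32.1%. Every call was a rise in lymph node, a direction in which 10.3%, 19.8% and 18.6% of all genes were called. The median log2 fold change of the genes, lymph node minus lamina propria, was 1.99, 2.07 and 2.46, and 1.48, 2.13 and 2.23 without S1pr5, which had almost no reads in CD103+ and double-positive DCs. Over all genes tested the medians were 0.03, 0.04 and 0.07.

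**Figure D1:**
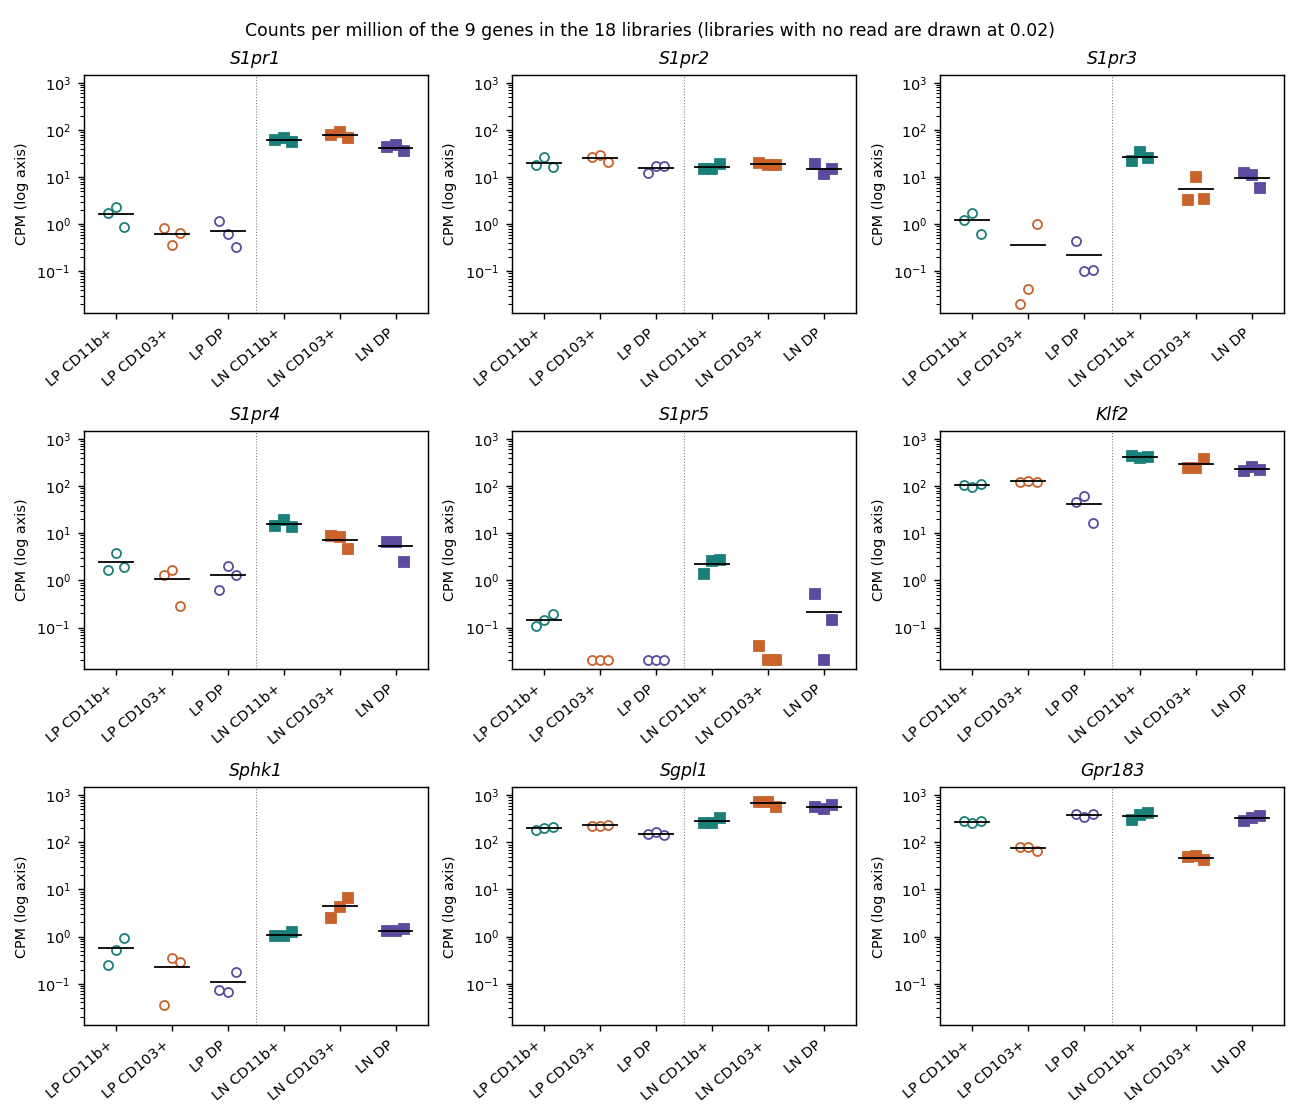
Each panel plots the CPM of a gene (log axis) in the 18 libraries, with open circles for lamina propria (LP), filled squares for lymph node (LN), colours for CD11b+, CD103+ and double-positive (DP) DCs and a line at the group mean where it exceeds 0.02; libraries with no read are drawn at 0.02. S1pr1 lay at 0.321 to 2.27 CPM in lamina propria and at 34.9 to 90.2 CPM in lymph node, while S1pr2 overlapped between the tissues and Gpr183 was lowest in CD103+ DCs of both.

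**Figure D2:**
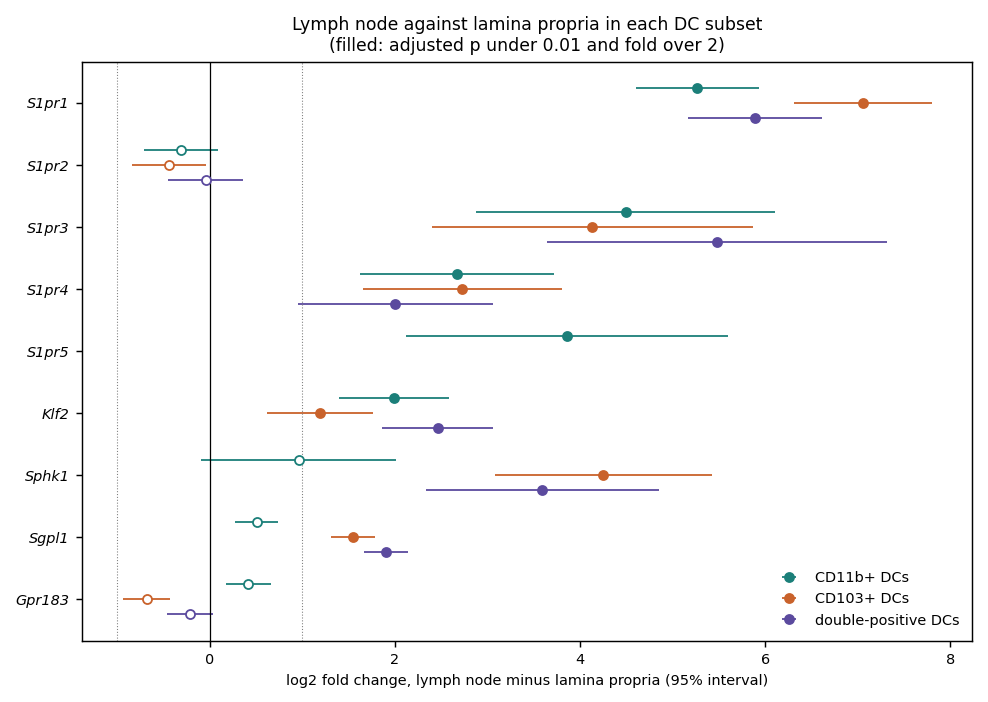
Points give the log2 fold change of each gene, lymph node minus lamina propria, in the 3 subsets, with bars for the 95% interval, filled where the gene was called. S1pr1 changed by 5.26 to 7.05, S1pr2 was called in no subset, and S1pr5 is drawn only for CD11b+ DCs because the other subsets had 0 reads in lamina propria.

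S1pr1, the receptor for exit into lymph and blood, had the largest log2 fold change of the 9 genes between the tissues in the fit over all libraries. Without lamina propria CD103+ replicate 3, S1pr3 stood above it in CD103+ DCs (7.48 against 7.09), and in double-positive DCs S1pr3 did so without lamina propria replicate 1 (6.49 against 6.47) and S1pr5, with 0 reads in lamina propria, without lamina propria replicate 3 or lymph node replicate 2. In CD11b+ DCs it was at 1.72, 2.27 and 0.853 CPM in lamina propria and at 60.8, 68.8 and 55.1 CPM in the lymph node libraries, a rise of 5.26 ± 0.34 (log2 fold change ± SE, adjusted p = 6.55e-09). In CD103+ DCs it was at 0.849, 0.366 and 0.653 CPM in lamina propria and at 79.7, 90.2 and 68.2 CPM in lymph node, a rise of 7.05 ± 0.38 (adjusted p = 8.45e-11). In double-positive DCs it was at 1.19, 0.610 and 0.321 CPM in lamina propria and at 43.5, 47.4 and 34.9 CPM in lymph node, a rise of 5.89 ± 0.37 (adjusted p = 6.98e-10). The tissues did not overlap in any subset, and each rise was called under all 27 alternatives in its comparison. A difference of these rises between subsets missed the threshold (adjusted p = 0.0182), although it passed in 7 of 26 alternatives, among them DESeq2's test (4.21e-04), no filter on low counts (0.00835) and the fit without lamina propria CD11b+ replicate 3 (0.00349).

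Within lamina propria, S1pr1 was called lower in CD103+ than in CD11b+ DCs, by a log2 fold change of -1.43 ± 0.40 (adjusted p = 0.00998). That call rested close to the threshold: it was lost in 14 of the 18 fits that left out a library, namely all but those without lamina propria CD11b+ replicate 3, CD103+ replicate 1 or double-positive replicate 1 or 3 (log2 fold change from -1.75 to -1.07, adjusted p up to 0.0729), without the 2 lymph node libraries that held both Xist and Ddx3y (adjusted p = 0.0148) with only the 6 libraries compared (-1.39, adjusted p = 0.0616) and with the replicate number as a block within the tissue (-1.36, adjusted p = 0.0616). The lamina propria libraries held only 9 to 62 reads of this gene each. In lymph node CD103+ and CD11b+ DCs overlapped, with a difference of 0.37 ± 0.27 (adjusted p = 0.26) that turned to -0.07 with libraries scaled by total counts. Double-positive DCs lay below both without overlap, with a log2 fold change of -0.92 ± 0.27 against CD103+ DCs (adjusted p = 0.0188) and -0.55 ± 0.27 against CD11b+ DCs (adjusted p = 0.109), neither of which was called.

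S1pr2, which couples to inhibition of migration, was called in none of the 9 comparisons. Its levels were 17.8, 26.3 and 16.7 CPM in lamina propria and 14.9, 15.1 and 18.8 CPM in lymph node CD11b+ DCs. CD103+ DCs held 26.2, 29.2 and 21.3 CPM in lamina propria and 19.9, 18.5 and 18.3 CPM in lymph node, with no overlap and a log2 fold change of -0.44 ± 0.20 (adjusted p = 0.0732). Double-positive DCs held 12.1, 17.0 and 17.3 CPM in lamina propria and 19.0, 11.7 and 14.5 CPM in lymph node, and the tissues overlapped (-0.04 ± 0.21, 95% interval -0.45 to 0.36). The lowest adjusted p among the subsets was that of double-positive against CD103+ DCs of lamina propria, with -0.73 ± 0.21 (adjusted p = 0.011).

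S1pr3, a receptor best known from the vessel wall and heart, rose in lymph node in all 3 subsets. CD11b+ DCs held 1.22, 1.76 and 0.632 CPM in lamina propria and 21.6, 33.7 and 25.7 CPM in lymph node, a log2 rise of 4.49 ± 0.82 (adjusted p = 3.99e-04). In CD103+ DCs the lamina propria libraries held 0, 2 and 25 reads (0, 0.0430 and 1.02 CPM) and the lymph node libraries 3.32, 9.95 and 3.38 CPM, a rise of 4.13 ± 0.88 (adjusted p = 6.48e-04) that stood at 7.48 without lamina propria CD103+ replicate 3. In double-positive DCs 0.447, 0.102 and 0.107 CPM in lamina propria stood against 12.2, 11.3 and 5.84 CPM in lymph node, a rise of 5.48 ± 0.94 (adjusted p = 8.78e-05). Lymph node CD11b+ DCs were the highest group, above CD103+ DCs by a difference that was just short of a call (-2.28 ± 0.73 for CD103+ minus CD11b+, adjusted p = 0.0147), and CD103+ and double-positive DCs overlapped. The difference was called with total counts (-2.72, adjusted p = 0.00475), with no filter (-2.32, 0.00394), with only the 6 libraries compared (-2.25, 0.00143), with the block within the tissue (-2.40, 1.79e-04) and in 4 fits without a library (lamina propria CD103+ replicate 1, 2 or 3 or lymph node CD103+ replicate 2). Kdr was likewise highest in lymph node CD11b+ DCs, whereas Robo4 fell in all 3 subsets and Cdh5 stayed at 0.659 CPM or below in every library. The 11 endothelial genes, mostly Pecam1, summed to 77.6 to 87.7 CPM in lamina propria and 83.85 to 91.2 CPM in lymph node CD11b+ DCs. The part of endothelial RNA in S1pr3 was not tested.

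S1pr4, a receptor of blood cells and lymphocytes, also rose in each subset. It was at 1.69, 3.77 and 1.93 CPM in lamina propria and 14.0, 19.5 and 13.4 CPM in lymph node CD11b+ DCs, a log2 rise of 2.67 ± 0.54 (adjusted p = 8.71e-04). CD103+ DCs went from 1.27, 1.66 and 0.286 CPM to 8.92, 8.14 and 4.73 CPM, a rise of 2.72 ± 0.55 (adjusted p = 3.81e-04). Double-positive DCs went from 0.633, 2.00 and 1.28 CPM to 6.68, 6.56 and 2.52 CPM, a rise of 2.00 ± 0.54 (adjusted p = 0.00416). The tissues did not overlap, but the call in double-positive DCs was lost without lamina propria double-positive replicate 1 (1.68) or 3 (1.99) and without lymph node double-positive replicate 1 (1.79) or 2 (1.81), with adjusted p between 0.0159 and 0.0239. In lymph node CD11b+ DCs were again highest, by differences that were not called (-1.11 ± 0.51 for CD103+ and -1.57 ± 0.51 for double-positive minus CD11b+, adjusted p = 0.0756 and 0.0199), and the other 2 subsets overlapped. With only the 6 libraries compared both were called (-1.08 and -1.55, adjusted p = 0.00685 and 0.00515), as they were with the block within the tissue (-1.14 and -1.64, adjusted p = 0.00344 and 6.40e-04).

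S1pr5, which NK cells use to leave lymph nodes and bone marrow, was read mainly in CD11b+ DCs. The lamina propria CD11b+ libraries held 3, 4 and 6 reads (0.108, 0.146 and 0.190 CPM) and the lymph node CD11b+ libraries 46, 79 and 81 reads (1.40, 2.56 and 2.70 CPM), a rise of 3.86 ± 0.89 (adjusted p = 0.00415). This call was lost without lamina propria CD11b+ replicate 1, 2 or 3 or lymph node CD11b+ replicate 2 or 3 (3.69 to 4.08, adjusted p 0.0135 to 0.0201), and without both libraries that held Xist and Ddx3y (3.70, adjusted p = 0.0256). Lamina propria CD103+ and double-positive DCs had 0 reads, against a floor of 3 reads, and lymph node CD103+ DCs had 1 read in all. Lymph node double-positive DCs held 13, 0 and 3 reads, which is at least 5.98-fold higher than the floor over the lamina propria group although replicate 2 overlapped that group at 0 reads. Its adjusted p was 0.00933, and 0.0626 without lymph node double-positive replicate 1, and the call was lost in 17 of 25 alternatives, among them the fit without both libraries that held Xist and Ddx3y (adjusted p = 0.0196).

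Within lymph node S1pr5 was lower in CD103+ than in CD11b+ DCs by a ratio of pooled reads of 155, with an exact 95% counting interval of 27.6 to 6164 (adjusted p = 3.15e-04). It was also called lower in double-positive than in CD11b+ DCs (-3.34 ± 0.86, adjusted p = 0.00721), a call lost in 8 of the 18 fits without a library (lamina propria CD11b+ replicate 1 or 2, lymph node CD11b+ replicate 1, 2 or 3, lymph node CD103+ replicate 1 and lymph node double-positive replicate 2 or 3; -5.03 to -2.74, adjusted p up to 0.035) and without the pair of libraries that held both Xist and Ddx3y (-2.97, adjusted p = 0.0923). Ncr1 and the NK cell genes were highest in the same group. S1pr5 per 100 CPM of the NK cell genes was 0.904 to 1.89 CPM in lymph node CD11b+ DCs and 1.21 to 3.33 CPM in lamina propria CD11b+ DCs. In lymph node this ratio peaked at 0.0666 CPM for the CD103+ sort. For the double-positive sort its median was 0.310 and its maximum 1.08 CPM, which overlapped lymph node CD11b+ DCs. Without S1pr5 reads, the ratio was 0 for both of these subsets in lamina propria. The part of NK cell RNA in these values was not tested.

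Per exon length the receptors changed order between the tissues. In RPKM, which divides CPM by the exon length in kilobases, S1pr2 was the highest S1P receptor in each lamina propria library, at 2.09 to 3.29 RPKM in CD11b+, 2.68 to 3.67 in CD103+ and 1.52 to 2.17 in double-positive DCs, where no other receptor passed 1.58 RPKM. In each lymph node library S1pr1 was highest, at 18.1 to 22.6 RPKM in CD11b+, 22.4 to 29.6 in CD103+ and 11.5 to 15.5 in double-positive DCs, and no other receptor passed 8.18 RPKM. Klf2, Sgpl1 and Gpr183 lay above S1pr2 in all 18 libraries on that scale, with Gpr183 highest of the 9 in lamina propria CD11b+ (94.8 ± 4.37 RPKM, SD, n = 3) and double-positive DCs (130 ± 10.7) and Klf2 highest in each lymph node group (226 ± 14.5, 156 ± 44.9 and 123 ± 12.3 in CD11b+, CD103+ and double-positive DCs). In double-positive DCs of lymph node Klf2 and Gpr183 (112 ± 12.3 RPKM) were within their spread.

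Klf2 rose in lymph node in each subset. CD11b+ DCs held 104, 97.4 and 113 CPM in lamina propria and 444, 390 and 415 CPM in lymph node, a log2 rise of 1.99 ± 0.30 (adjusted p = 6.29e-05). CD103+ DCs held 124, 129 and 125 CPM in lamina propria and 237, 244 and 384 CPM in lymph node, a rise of 1.19 ± 0.29 (adjusted p = 0.00201) that fell short of a call without lymph node CD103+ replicate 3 (0.91, adjusted p = 0.0169) and when libraries were scaled by total counts (0.96). Double-positive DCs held 45.8, 60.7 and 16.7 CPM in lamina propria and 205, 250 and 225 CPM in lymph node, a rise of 2.46 ± 0.31 (adjusted p = 2.87e-06) and of 2.09 without lamina propria double-positive replicate 3. The difference between these rises was not called (adjusted p = 0.0492).

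Within lamina propria Klf2 was called lower in double-positive DCs than in either other subset. It was below CD103+ DCs by a log2 fold change of -1.62 ± 0.30 (adjusted p = 3.96e-04), a call that remained in all 28 alternatives, at -1.24 without double-positive replicate 3, the library with 16.7 CPM. It was lower than in CD11b+ DCs by -1.35 ± 0.30 (adjusted p = 0.00536), which was lost without double-positive replicate 1 (-1.43) or CD11b+ replicate 1, 2 or 3 (-1.40 to -1.30), with adjusted p between 0.0116 and 0.016. It was also lost, under the fold limit, without double-positive replicate 3 (-0.98, adjusted p = 0.00243), and above the p threshold without both libraries that held Xist and Ddx3y (-1.35, adjusted p = 0.0119), with the replicate number as a block within the tissue (-1.46, adjusted p = 0.0215) and with only the 6 libraries compared (-1.37, adjusted p = 0.0588). In lymph node CD11b+ DCs had the highest levels, with no overlap with the other subsets, yet no pair of subsets was called (-0.53 ± 0.29 and -0.88 ± 0.29 for CD103+ and double-positive minus CD11b+, adjusted p = 0.133 and 0.0212).

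T cell RNA is a possible source of these reads in the lymph node sorts, and the measurements that bear on it differ by gene. Per 100 CPM of the T cell genes, S1pr1 was at 1.22 to 8.22 CPM in lamina propria and 3.17 to 7.41 CPM in lymph node, with medians of 3.11 and 6.05, so the ratio overlapped between the tissues. S1pr3 overlapped as well, at 0 to 8.53 and 0.225 to 3.46 CPM per 100 CPM. S1pr4 was at 2.11 to 14.1 CPM in lamina propria and 0.228 to 1.80 CPM in lymph node, and Klf2 at 104 to 1099 and 15.2 to 55.8 CPM. For S1pr4 and Klf2 the ratio was lower in every lymph node library than in any lamina propria library, as it was for S1pr2, Sgpl1 and Gpr183. Any gene that rises by less than the T cell sum has a lower ratio, so this fall does not set S1pr4 or Klf2 apart. In lamina propria CD103+ DCs, where the T cell genes summed to 11.8 to 19.2 CPM, Klf2 was at 124 to 129 CPM.

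Among the 9 lymph node libraries, with the mean of each subset removed, S1pr1 and S1pr4 were the genes that varied most closely with the mean log2 CPM of the T cell genes. Pearson's r was 0.902 for S1pr1 (exact permutation p = 0.0139, adjusted 0.0833) with a Spearman's rho of 0.767 (p = 0.0509, adjusted 0.181 by exact permutation), and r was 0.853 without the 2 libraries farthest from the median. For S1pr4 r was 0.874 (exact permutation p = 0.00926, adjusted 0.0833) with a rho of 0.750 (exact permutation p = 0.0139, adjusted 0.0833), and r was 0.916 without the 2 libraries. Klf2 and Sphk1 had r of -0.652 and -0.680 and rho of -0.683 and -0.733 (exact permutation, adjusted p between 0.146 and 0.204), and without the 2 libraries r was -0.451 and -0.357. The test was two-sided over every arrangement within the subsets, in a family of 18 values. None passed the adjusted threshold of 0.05, and 0.0046 is the smallest p the arrangements can give. With libraries scaled by total counts S1pr4 passed (r = 0.882, adjusted exact permutation p = 0.0417), and against the NK cell genes, an alternative chosen after seeing the data, S1pr1 passed (r = 0.924, adjusted exact permutation p = 0.0417). What part of each rise came from T cells was not tested.

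**Figure D3:**
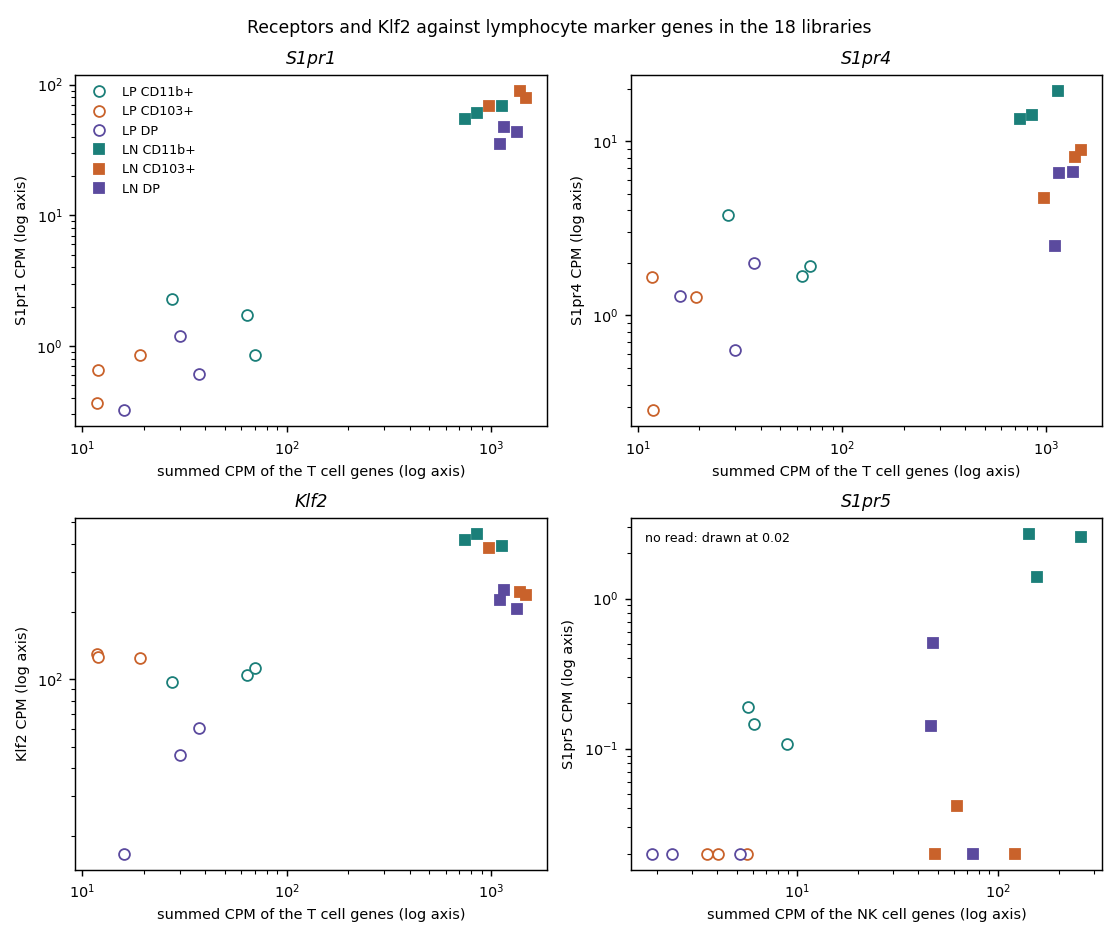
S1pr1, S1pr4 and Klf2 (CPM, log axes) are plotted against the summed CPM of the T cell genes, and S1pr5 against that of the NK cell genes, with open circles for lamina propria (LP), filled squares for lymph node (LN) and colours for the subsets. Lymph node libraries lay at 744 to 1477 CPM of T cell genes, apart from all lamina propria libraries at 11.8 to 69.9 CPM, and Klf2 stood at 124 CPM or above in lamina propria CD103+ DCs, where T cell genes summed to 11.8 to 19.2 CPM.

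Sphk1, an S1P-producing kinase, was rare in these cells but higher in lymph node. CD103+ DCs held 0.0354, 0.344 and 0.286 CPM in lamina propria and 2.45, 4.22 and 6.62 CPM in lymph node, a log2 rise of 4.25 ± 0.60 (adjusted p = 9.57e-06). Double-positive DCs held 2, 2 and 5 reads in lamina propria (0.0678 to 0.178 CPM) and 1.29, 1.29 and 1.43 CPM in lymph node, a rise of 3.59 ± 0.65 (adjusted p = 1.41e-04). In CD11b+ DCs 0.251, 0.512 and 0.916 CPM in lamina propria and 1.03, 1.01 and 1.26 CPM in lymph node did not overlap, but the difference of 0.96 ± 0.54 did not pass (adjusted p = 0.175). Lymph node CD103+ DCs were the highest group, and above CD11b+ DCs by 2.00 ± 0.52 (adjusted p = 0.0038), a call lost without lymph node CD11b+ replicate 1 (1.92), 2 (1.90) or 3 (2.07) or CD103+ replicate 3 (1.58), with adjusted p between 0.0127 and 0.0291, without both libraries that held Xist and Ddx3y (2.11, adjusted p = 0.0163) and with total counts (1.57, adjusted p = 0.0147). The exons of Sphk1 overlap the antisense gene Gm29292, those of S1pr3 overlap Gm32834 and those of S1pr5 overlap Gm48303. No source used here says whether counting used strand, and reads of such pairs cannot be told apart without it.

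Sgpl1, the lyase that removes S1P for good, rose in the 2 subsets sorted for CD103. CD103+ DCs held 223, 227 and 237 CPM in lamina propria and 732, 712 and 560 CPM in lymph node, a log2 rise of 1.55 ± 0.12 (adjusted p = 8.86e-09). Double-positive DCs held 153, 165 and 140 CPM in lamina propria and 562, 509 and 634 CPM in lymph node, a rise of 1.90 ± 0.12 (adjusted p = 1.11e-09). CD11b+ DCs held 183, 198 and 215.5 CPM in lamina propria and 257, 262 and 329 CPM in lymph node, and their difference of 0.51 ± 0.12 (adjusted p = 0.0029) lay below the limit on fold. The rises differed between subsets (adjusted p = 1.20e-05), as they did in all 26 alternatives (adjusted p up to 1.19e-04). In lymph node both CD103+ DCs (1.24 ± 0.12, adjusted p = 1.90e-07) and double-positive DCs (1.01 ± 0.12, adjusted p = 3.71e-06) were above CD11b+ DCs without overlap. The first fell to 0.81 and the second to 0.64 when libraries were scaled by total counts. The second lay so near the fold limit that it was not called in 8 of the 18 fits without a library, those without lymph node CD11b+ replicate 1 or 2, double-positive replicate 3, any CD103+ replicate of lymph node or lamina propria CD103+ replicate 2 or 3 (lowest value 0.91, adjusted p up to 7.13e-05). CD103+ and double-positive DCs of lymph node overlapped.

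Gpr183, the oxysterol receptor, differed between CD103+ DCs and each other subset by more than the fold limit in both tissues, and between tissues by less. In lamina propria CD11b+ DCs held 281, 259 and 281 CPM, CD103+ DCs 80.0, 80.7 and 65.8 CPM and double-positive DCs 391, 341 and 396 CPM. In lymph node the same subsets held 291, 382 and 421 CPM, 48.3, 50.8 and 42.0 CPM, and 290, 322 and 361 CPM. CD103+ DCs were lowest in both tissues with no overlap. CD103+ DCs were below CD11b+ DCs by -1.86 ± 0.13 in lamina propria (adjusted p = 8.61e-09) and -2.95 ± 0.14 in lymph node (adjusted p = 3.70e-11). Double-positive DCs were above CD103+ DCs by 2.32 ± 0.13 in lamina propria (adjusted p = 7.40e-10) and 2.79 ± 0.14 in lymph node (adjusted p = 1.12e-09). These 4 calls held under every alternative in their comparisons. Double-positive DCs lay above CD11b+ DCs by 0.46 ± 0.13 in lamina propria (adjusted p = 0.0219), which was not called. Double-positive and CD11b+ DCs overlapped in lymph node (-0.17 ± 0.13, adjusted p = 0.304).

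Between the tissues no Gpr183 difference reached the fold limit. It was 0.41 ± 0.13 in CD11b+ (adjusted p = 0.0151), -0.68 ± 0.13 in CD103+ (adjusted p = 2.02e-04) and -0.21 ± 0.13 in double-positive DCs (adjusted p = 0.156). These differences were not alike, since the test of the difference of tissue effects was called (adjusted p = 3.74e-04, at most 0.0014 in 26 alternatives). That test was called for 3 of the 9 genes (Sphk1, Sgpl1 and Gpr183), beside 31.5% of all genes tested. The call for Sphk1 (adjusted p = 0.00587) was lost in 8 fits without a library (0.0104 to 0.0295), without both libraries that held Xist and Ddx3y (0.0209) and with total counts (0.0112). The 8 were lamina propria CD11b+ replicates 2 and 3, lymph node CD11b+ replicates 1, 2 and 3, lymph node CD103+ replicates 2 and 3 and lymph node double-positive replicate 3. Gpr183 lies within the span of Ubac2 on the opposite strand and shares no exon with it.

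Read by subset, the counts of called genes within a tissue were small. Between CD103+ and CD11b+ DCs of lamina propria 2 of the 9 genes were called, S1pr1 and Gpr183, beside 15.7% of all genes. Between double-positive and CD11b+ DCs of lamina propria it was 1 of 9, Klf2, beside 4.81%, and between double-positive and CD103+ DCs 2 of 9, Klf2 and Gpr183, beside 13.6%. In lymph node 4 of 9 were called between CD103+ and CD11b+ DCs (S1pr5, Sphk1, Sgpl1 and Gpr183), beside 25.9%. There 2 of 9 were called between double-positive and CD11b+ DCs (S1pr5 and Sgpl1), beside 16.7%, and 1 of 9 between double-positive and CD103+ DCs (Gpr183), beside 6.53%.

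Other genes of S1P metabolism were called in both directions, in CD103+ and double-positive DCs at about the share of all genes. Of the 18 tested among 20 genes of S1P and ceramide enzymes and transport, 3 rose and 2 fell in CD11b+ DCs, 3 and 3 in CD103+ DCs, and 4 and 1 in double-positive DCs. That is 27.8%, 33.3% and 27.8% of the list, beside 15.2%, 35.0% and 32.1% of all genes, and the median log2 fold changes were -0.08, 0.22 and 0.40 beside 0.03, 0.04 and 0.07 over all genes. Spns2, the exporter of S1P, rose by 2.74 ± 0.45 in CD11b+ DCs, by 5.47 ± 0.53 in CD103+ DCs and by 2.80 ± 0.45 in double-positive DCs (adjusted p up to 1.38e-04), from 0.0408 to 1.11 CPM in lamina propria libraries to 3.59 to 8.46 CPM in lymph node libraries. Acer3, a ceramidase, fell, with log2 fold changes of -1.26, -2.66 and -2.25 (adjusted p up to 1.16e-07). Plpp1, a lipid phosphate phosphatase, fell by 2.90 on the log2 scale in CD103+ DCs (170 to 225 CPM to 23.7 to 26.7 CPM) and rose by 1.81 and 1.72 in CD11b+ and double-positive DCs, where it stayed at 11.3 CPM or below. Acer2, a ceramidase read at 2.11 CPM or below, rose by 4.62 in CD103+ and 2.25 in double-positive DCs, while Cers4, a ceramide synthase, rose by 1.96 in CD11b+ and 1.80 in double-positive DCs. Sphk2 was at 43.8 to 85.5 CPM in every library and Sgpp1, an S1P phosphatase, at 111 to 169 CPM, and neither was called between the tissues.

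Among the genes of oxysterol synthesis Ch25h was rare and Cyp27a1 abundant. Of the 4 tested among 6 genes, 1 rose in CD11b+ and 3 rose in each of the other subsets, and none fell, beside 15.2%, 35.0% and 32.1% of all genes called, with median log2 fold changes of 1.32, 4.16 and 2.92. Cyp27a1, a sterol hydroxylase of mitochondria, was at 119 to 270 CPM in all 18 libraries and was not called, with log2 fold changes of 0.12, -0.49 and -0.04. Ch25h, which makes the precursor of the Gpr183 ligand, was read at 2.28 CPM or below in every library and rose by 5.04 ± 0.90 in CD103+ and 3.16 ± 0.84 in double-positive DCs. Cyp7b1, which completes the ligand, rose by 3.35 ± 0.48 in CD103+ DCs (0.0860 to 0.424 CPM to 1.73 to 2.67 CPM) and 2.67 ± 0.41 in double-positive DCs (1.14 to 2.95 CPM to 11.8 to 14.0 CPM), and was at 3.90 to 10.2 CPM in CD11b+ DCs of both tissues. Hsd11b1, a steroid dehydrogenase, rose in all 3 subsets, by 3.19, 4.98 and 4.34. Hsd3b7, which degrades the ligand, was listed at 0 reads in all 18 libraries.

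Among 15 genes of receptor signalling and retention, 1 rose and 1 fell in CD11b+, 3 and 4 in CD103+, and 2 and 3 in double-positive DCs, with medians of -0.22, 0.15 and -0.07. That is 13.3%, 46.7% and 33.3% of the list, beside 15.2%, 35.0% and 32.1% of all genes. Cd69, whose product binds S1pr1 and takes it off the cell surface, rose by 2.34 ± 0.24 in CD103+ DCs (9.33 to 13.2 CPM to 50.7 to 66.0 CPM) and fell by 2.48 ± 0.23 on the log2 scale in double-positive DCs (263 to 341 CPM to 47.7 to 65.5 CPM). In CD11b+ DCs its log2 fold change was -0.99 ± 0.22 (adjusted p = 0.00222), just under the fold limit and so not called. The receptor kinase Grk5 rose by 1.30 to 1.57 and the G protein Gnaq fell in the 3 subsets (-1.29 to -1.04). Arrb1, an arrestin that uncouples receptors, fell in CD103+ DCs (-1.96). Rac2, a GTPase of blood cells, fell in CD103+ and double-positive DCs (-1.52 and -1.78).

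Among 18 genes of the KLF and FOXO families, their targets and the MEF2 and ERK5 genes that act upstream of Klf2, none was called in CD11b+ DCs, 4 rose and 4 fell in CD103+ DCs, and 2 rose and 7 fell in double-positive DCs, with medians of -0.13, 0.00 and -0.40. The called shares were 0%, 44.4% and 50%, beside 15.2%, 35.0% and 32.1% of all genes. In CD11b+ DCs DESeq2 called 0 as well, and 7 genes had an unadjusted p under 0.05 in edgeR's test, none of them past both thresholds. Foxo1 rose by 1.69 ± 0.09 in CD103+ DCs and Klf9 by 4.06 ± 0.33, while the transcription factor Mef2c (-3.17 and -3.03) and the gut-homing integrin Itgb7 (-2.63 and -2.29) fell in CD103+ and double-positive DCs.

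**Figure D4:**
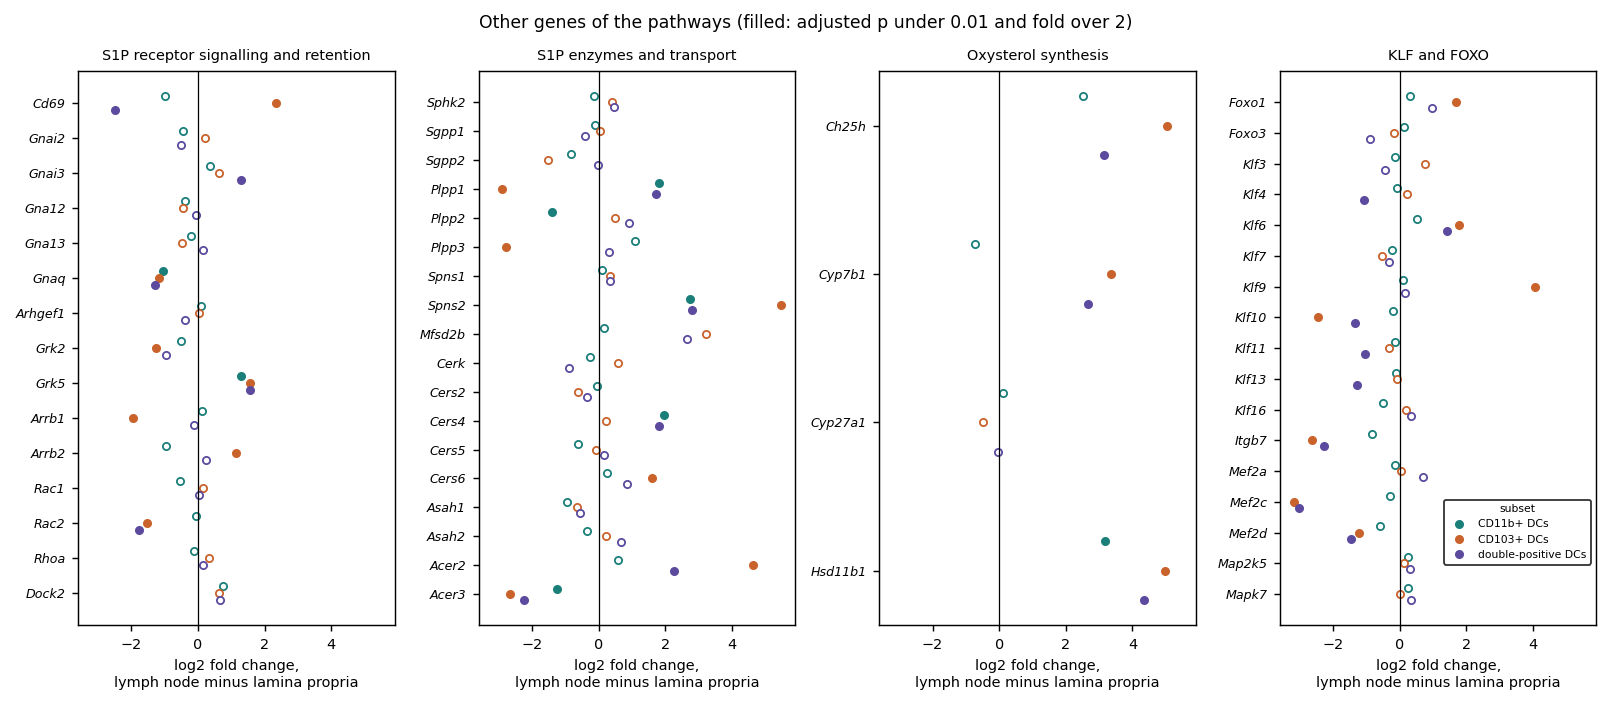
Points give the log2 fold change, lymph node minus lamina propria, of the other tested genes of the 4 pathways (1 is not drawn) in CD11b+, CD103+ and double-positive DCs, filled where adjusted p was under 0.01 and the fold over 2. Spns2 and Hsd11b1 rose in all 3 subsets, Acer3 fell in all 3, and Cd69 moved by 2.34 and -2.48 in CD103+ and double-positive DCs.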

How the data were processed

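RNA was measured by Smart-seq v4 libraries read at 75 bases on a HiSeq4000. The authors deposited a table of raw read counts per Ensembl gene, unnormalised. Their processing notes name GRCm38, STAR 2.6 and FastQC 0.11.7. For the counter, its strand setting and the annotation release, no source used here gives a name. A Smart-seq library carries no molecular identifiers, so counting intervals cover counting error only.

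Groups came from the sample labels. Counts were tested with edgeR 4.0.16 (R 4.3.3): TMM scaling (factors 0.853 to 1.21), the filterByExpr filter (17074 of 54232 genes), 1 quasi-likelihood fit of 6 group means over the 18 libraries, and Benjamini-Hochberg adjustment over all genes tested. A gene was called at an adjusted p under 0.01 and a fold over 2. The difference of tissue effects was an F test in the same fit, called at an adjusted p under 0.01. SE is the log2 fold change divided by the root of F. CPM used TMM-scaled totals, RPKM the GENCODE vM21 exon length, and log2 CPM a prior count of 2. Low-count folds took a floor of 3 reads over a group.

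Alternatives were DESeq2 1.42.0 size factors and test, total-count scaling, no filter, 100 counts in 3 libraries, other thresholds, a replicate block, the 6 libraries of a comparison alone, and fits without a library. A block within a tissue and the NK cell list were added after seeing the data. Same-numbered lamina propria libraries of CD11b+ and CD103+ DCs (r of deviations 0.152 to 0.208) and of CD103+ and double-positive DCs (0.125 to 0.189) deviated together in every pair, a pairing seen in the data, not stated in the labels. Those of CD11b+ and double-positive DCs were positive as well (0.075 to 0.25), weakest for replicate 2. Same-numbered lymph node libraries were positive too, but weaker, at 0.0319 to 0.0615 for CD11b+ and CD103+ DCs and 0.0152 to 0.0573 for CD103+ and double-positive DCs. In these cases each lay above all pairs of unlike number. CD11b+ and double-positive DCs of lymph node had 0.0336 to 0.129, highest for replicate 3, and a pair of unlike number reached 0.0347. Groups of different tissues shared only a number. No replicates were duplicates (chi-square per gene 14.9 to 64.9). The fit was tested on simulated data. The genes and lists were chosen with earlier results of these data known. Named are the 9 genes, at most the 3 largest called changes per list and comparison between tissues, list genes whose role stands beside one of the 9 (Cd69, Spns2, Ch25h, Cyp7b1, Hsd3b7, Sphk2, Sgpp1 and Foxo1), the 3 genes most like each of the 9, and defining markers. A gene named for 1 subset may have its values in the others beside it. One list gene is counted but not reported here. Figures used matplotlib 3.10.9.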

Additional observations from a re-analysis of the deposited data

Results flagged for a closer look

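The difference between lymph node and lamina propria was itself different among the 3 subsets for Sgpl1 (adjusted p = 1.20e-05), Gpr183 (adjusted p = 3.74e-04) and Sphk1 (adjusted p = 0.00587), by edgeR's quasi-likelihood F test over all genes. For Sgpl1 the log2 fold changes were 0.51, 1.55 and 1.90 in CD11b+, CD103+ and double-positive DCs. For Gpr183 they were 0.41, -0.68 and -0.21, and for Sphk1 0.96, 4.25 and 3.59.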

How the results depend on the processing

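Among values of single genes, 2231 kept their direction and their side of the threshold, 93 lost a call, 52 gained one and 13 changed direction over the alternatives tried. With total counts S1pr1 (-0.07) and S1pr2 (-0.21) changed direction between lymph node CD103+ and CD11b+ DCs, as did Sphk1 (-0.09) between double-positive and CD11b+ DCs. Without both libraries that held Xist and Ddx3y S1pr2 did so between lymph node double-positive and CD11b+ DCs (0.02). None of these was called. Leaving out 1 library at a time gave ranges across 0 for S1pr2 between the tissues in double-positive DCs (-0.25 to 0.11) and between lymph node double-positive and CD11b+ DCs (-0.33 to 0.03). Between lamina propria double-positive and CD103+ DCs it did so for S1pr1 (-0.34 to 0.59), S1pr3 (-1.54 to 2.83) and S1pr4 (-0.19 to 0.72).

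The number of the 9 genes called moved as follows, and the cause was not tested. Leaving out a library gave 4 to 5, 5 to 6 and 5 to 7 between the tissues in CD11b+, CD103+ and double-positive DCs. In lamina propria it gave 1 to 2 for CD103+ against CD11b+ DCs and 0 to 2 for double-positive against CD11b+ DCs. In lymph node it gave 3 to 5 for CD103+ against CD11b+, 0 to 2 for double-positive against CD11b+ and 1 to 2 for double-positive against CD103+ DCs, and 2 to 5 for the difference of tissue effects. Without a filter lymph node double-positive against CD11b+ DCs had 1 call, and with the stricter filter, which tests fewer genes, 0, and CD103+ against CD11b+ DCs 2. DESeq2 called 3 for lamina propria double-positive against CD11b+ DCs and 2 for lymph node double-positive against CD103+ DCs. At an adjusted p under 0.05 with no fold limit, lamina propria double-positive DCs had 4 calls against CD11b+ and 4 against CD103+ DCs, lymph node double-positive DCs 4 and 3, and the difference of tissue effects 5. Without both libraries that held Xist and Ddx3y the counts were 1 (lamina propria CD103+ against CD11b+), 0 (lamina propria double-positive against CD11b+) and 1 (lymph node double-positive against CD11b+). With only the 6 libraries compared they were 1, 0 and 4, 2 for lymph node double-positive against CD103+ DCs, and 6 for lymph node CD103+ against CD11b+ DCs, where S1pr3 and S1pr4 were called as well. Against the T cell genes 1 gene passed with total counts, 1 with the NK cell list and 0 with the B cell list. Without a library 0 passed, but these 72 arrangements give no p under 0.0139, so that this says little.

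With the replicate number as a block over all libraries, S1pr5 lost its calls between the tissues in double-positive DCs (5.49, adjusted p = 0.0192) and between lymph node double-positive and CD11b+ DCs (-3.59, adjusted p = 0.0107), and S1pr4 gained the latter (-1.65, adjusted p = 0.00361), as did S1pr1 the difference of tissue effects (0.0082). It changed no other call. With the block within a tissue the count was 1 for lamina propria CD103+ against CD11b+ DCs, 0 for double-positive against CD11b+ (Klf2 -1.46, adjusted p = 0.0215) and 2 for lymph node double-positive against CD103+ DCs. It was 6 for lymph node CD103+ against CD11b+ DCs, where S1pr3 and S1pr4 gained a call, and 3 for double-positive against CD11b+ DCs, where S1pr3 (-1.46, adjusted p = 0.0041) and S1pr4 gained one and S1pr5 (-3.65, adjusted p = 0.0102) lost it. S1pr1, S1pr3, S1pr5 and Sphk1 had at most 62 reads in a lamina propria library, where differences between subsets were near the limit of this depth.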

Other observations

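Genes of DC maturation rose in lymph node. Of 12 tested, 10 rose in each subset, with 0, 1 and 1 lower in CD11b+, CD103+ and double-positive DCs, and the median log2 fold changes were 1.84, 4.24 and 3.49. Of all genes tested, 10.3%, 19.8% and 18.6% were called higher in lymph node in these subsets. Ccr7, the receptor that guides DCs into lymph vessels, rose by 5.18, 6.27 and 5.85, and Fscn1, an actin bundler of mature DCs, by 4.83, 7.41 and 6.00. Socs2, a brake on cytokine signals, rose by 3.55, 6.66 and 4.89. Genes set by tissue dissociation moved in both directions. Of 20, 3 rose and 3 fell in CD11b+, 4 and 6 in CD103+, and 4 and 8 in double-positive DCs, which is 30.0%, 50% and 60.0% of the list beside 15.2%, 35.0% and 32.1% of all genes. Of 8 macrophage genes 4, 4 and 6 fell and 0, 1 and 0 rose, and of 8 epithelial genes 8, 2 and 6 fell and none rose. Those are 50%, 62.5% and 75.0% of the macrophage and 100%, 25.0% and 75.0% of the epithelial genes, beside the same shares of all genes. The part of these cells in the S1P receptor values was not tested.

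The genes whose log2 CPM followed each receptor most closely over the 18 libraries are given as a description, since the libraries share tissue and subset. For S1pr1 they were Dgka (Pearson's r = 0.981), Chka (0.981) and Icosl (0.980). For S1pr4 they were Gimap1 (0.938), Cmpk2 (0.935) and Slfn1 (0.929), for S1pr3 Tnfsf11 (0.952), Spic (0.950) and Dscam (0.949), and for Klf2 Cited2 (0.964), Sept8 (0.949) and Slamf6 (0.938). For Sgpl1 they were Atf7ip (0.986), Rnf19a (0.985) and Rasip1 (0.981), and for Gpr183 Ddr1 (0.961), Siglecg (0.958) and Gm19951 (0.958). For S1pr5 they were Gm830 (0.960), Gm17281 (0.943) and Gm32618 (0.941), and for Sphk1 Katnbl1 (0.946), Usp16 (0.940) and Nxn (0.935). S1pr2 had the weakest likeness of the 9, with Gtf3c4 (0.868), Ints5 (0.845) and Thap11 (0.814).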
